A study of Mus musculus with 2 samples.

Results

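Genes of oxidative phosphorylation were compared between 1 liver section of a mouse on normal chow (NCD) and 1 liver section of a mouse on a high-fat diet (HFD), and along the liver lobule within each section. Genes were taken by symbol from the spatial transcriptomics (ST) tables, with the stems Nduf, Sdh, Uqcr, Cox4 to Cox8 and Atp5 for nuclear subunits of complexes I to V and mt-Nd, mt-Co, mt-Cytb and mt-Atp for those of the mitochondrial genome, which gave 98 of 32285 genes. The nuclear genome encodes 85 of them (38 of complex I, 4 of complex II, 8 of complex III, 18 of complex IV and 17 of complex V) and the mitochondrial genome 13 (7, 0, 1, 3 and 2). Symbols outside the naming rule, such as Cyc1 and Ndufab1, were taken as a list of relatives. Ndufa4 was kept with complex I as its symbol has it, although its protein is now placed in complex IV.

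Oxidative phosphorylation passes electrons from NADH (complex I) and succinate (complex II) through ubiquinone, complex III and cytochrome c to oxygen at complex IV, and complex V makes ATP from the proton gradient that complexes I, III and IV build. Complex II is encoded by nuclear genes alone, whereas the other complexes join proteins of both genomes, and the mitochondrial mRNAs are cut from long transcripts of the circular genome. Periportal hepatocytes, which receive the blood richest in oxygen, are known for more and larger mitochondria and for oxidative metabolism, and pericentral hepatocytes for glycolysis, lipogenesis and xenobiotic metabolism.

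Both animals were male C57BL/6J mice, bought at 5 weeks of age and acclimated for 1 week, and each mouse received its diet for 14 weeks and then an intervention of 8 weeks with water. The high-fat diet drew 60% of its energy from fat. ST was done with the 10x Visium assay, in which each spot of a slide captures the RNA of a small area that can hold several cells, and each captured molecule is counted once by its unique molecular identifier (UMI). Diet, animal, section and capture area cannot be told apart with 1 section per diet, so that no test was possible. All intervals are exact at the 95% level and cover counting error only.

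The NCD section held 3692 spots over tissue with 29037988 UMIs (median 4187.5 per spot), and the HFD section 3594 spots with 72118803 UMIs (median 18549). Spot barcodes mark fixed slide positions, and 3173 were used in both sections. In the NCD capture area, spots called off tissue were nearly as deep as those over tissue, and a spot over tissue had more UMIs in 51.6% of pairs, against 99.2% in the HFD capture area. The labels name an immune cell type and hematopoietic stem cells, but hepatocyte transcripts led both sections. Alb, the gene of serum albumin, reached 56011 counts per 1000000 UMIs (CPM) in NCD and 57872 CPM in HFD, whereas markers of hematopoietic progenitors summed to 11.5 and 18.7 CPM.

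The sequences of overlapping mitochondrial genes come first because the first genes of these pairs, mt-Nd4l and mt-Atp8, showed the widest differences between the sections, while their partners differed far less. Each of 2 gene pairs lies on one mRNA, mt-Atp8 with mt-Atp6 and mt-Nd4l with mt-Nd4, and in each pair the reading frame of the second gene starts before the first has ended. mt-Atp8 (chrM:7766-7969) and mt-Atp6 (chrM:7927-8607) share 43 bases, and mt-Nd4l (chrM:9877-10173) and mt-Nd4 (chrM:10167-11544) share 7 bases. Both are on the plus strand of GRCm38. The windows below run 5′ to 3′ over chrM:7903-7993 and chrM:10143-10197 of the RefSeq mitochondrial sequence, and capitals mark the shared bases, which open with the ATG of the second gene and close with the TAA of the first.
mt-Atp8/mt-Atp6: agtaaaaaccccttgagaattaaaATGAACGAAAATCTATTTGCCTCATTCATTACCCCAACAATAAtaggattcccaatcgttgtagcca
mt-Nd4l/mt-Nd4: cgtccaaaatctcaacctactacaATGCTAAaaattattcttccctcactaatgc

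Poly(A) capture reads a transcript from its 3′ end, which on such an mRNA lies in the second gene. The first gene of each pair had few UMIs beside its partner in both sections. In NCD, mt-Atp8 had 3005 UMIs and mt-Atp6 374871, a ratio of 0.802%, and in HFD the counts were 3224 and 636002, a ratio of 0.507%. For mt-Nd4l and mt-Nd4 the counts were 7234 and 191176 in NCD (3.78%) and 6498 and 344638 in HFD (1.89%). The values of mt-Atp8 and mt-Nd4l are therefore uncertain as measures of their mRNAs, since a molecule is given to one gene or the other by where its read falls. The part of that assignment in the differences below was not tested.

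Every mitochondrially encoded gene was lower in HFD. The 13 genes summed to 85137 CPM (85031 to 85244) in NCD and to 56426 CPM (56371 to 56481) in HFD, a log2 ratio of -0.59 (-0.60 to -0.59), or 1.51-fold lower. With the mean of at least 10 CPM that was asked of a gene before its fold was counted, 12 of the 13 entered, and the interval of each lay below 0, as did 22.9% of the intervals of all 6257 genes. Of these, 8 were at least 1.5-fold lower and 0 were at least 1.5-fold higher, beside 4.51% of all 6257 genes that were lower by that much and 17.9% that were higher. The median of the 12 log2 ratios was -0.74, while the median of all genes was 0.18 with quartiles of -0.076 and 0.46.

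**Figure D1:**
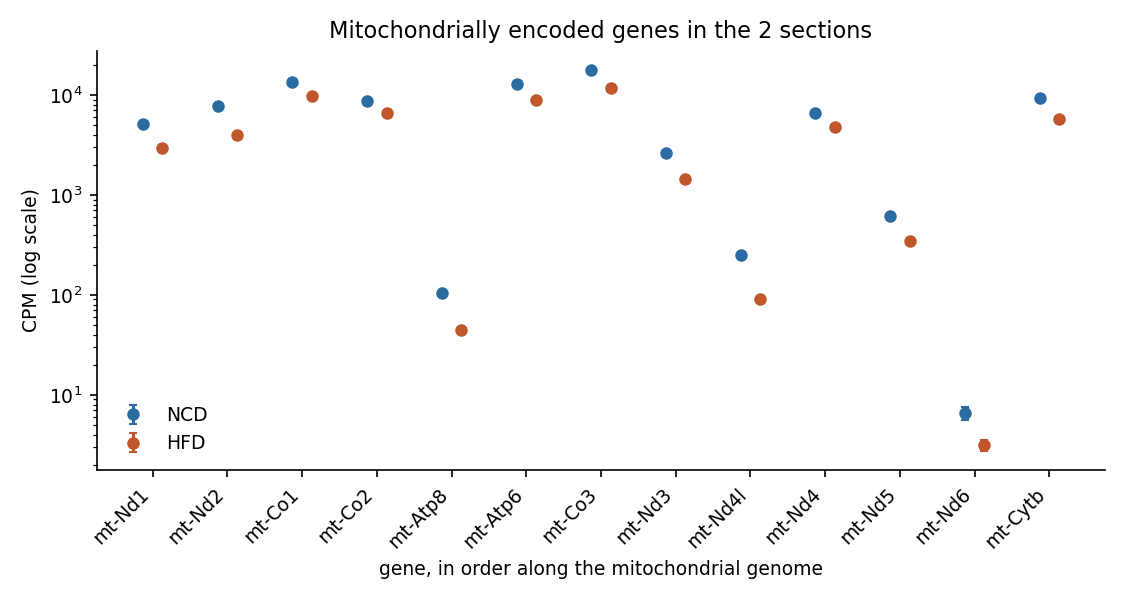
CPM of the 13 mitochondrially encoded genes in the NCD and HFD sections on a log scale, in the order of their start along the genome, with exact 95% Poisson intervals that are mostly smaller than the points. The HFD point lies below the NCD point for each gene, from mt-Co2 (log2 ratio -0.37) to mt-Nd4l (-1.47).

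The core of complex I that the mitochondrial genome encodes forms its proton-pumping membrane arm. mt-Nd1 counted 5158 CPM in NCD and 2969 CPM in HFD (log2 ratio -0.80). mt-Nd2 counted 7798 and 4017 CPM (-0.96), and mt-Nd3 2656 and 1431 CPM (-0.89). These differences were wider than that of mt-Nd4, which counted 6584 and 4779 CPM (-0.46, -0.47 to -0.45), and their intervals did not overlap with it. mt-Nd5 counted 619 and 343 CPM (-0.85). mt-Nd4l had the widest difference of the 13 at 249 and 90.1 CPM (-1.47, -1.52 to -1.42).

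mt-Nd6 is the one protein gene on the minus strand, and its 519 bases (chrM:13552-14070) share 14 bases with mt-Nd5 on the opposite strand. It had 189 UMIs in NCD and 226 in HFD, or 6.51 and 3.13 CPM, under the minimum for counting folds. Its log2 ratio was -1.05 with an interval of -1.34 to -0.77. The direction was that of the other 12 genes, at a depth that leaves its size wide.

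mt-Cytb, the catalytic cytochrome of complex III, counted 9249 CPM in NCD and 5747 CPM in HFD (-0.69). The subunits of complex IV that hold its copper and haem centres, mt-Co1 and mt-Co2, differed least. mt-Co1 counted 13371 and 9841 CPM (-0.44), and mt-Co2 8616 and 6660 CPM (-0.37). mt-Co3, their partner in the core, counted 17817 and 11683 CPM (-0.61). In complex V, mt-Atp6, which lines the proton channel beside the c-ring, counted 12910 and 8819 CPM (-0.55), and mt-Atp8 103 and 44.7 CPM (-1.21, -1.28 to -1.14).

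The 13 genes were thus not lower by one factor. As a share of mitochondrially encoded UMIs, mt-Co1 was 15.7% in NCD and 17.4% in HFD, and mt-Co2 10.1% and 11.8%. mt-Nd2 held 9.16% and 7.12%, and mt-Nd3 3.12% and 2.54%. mt-Co3 kept nearly the same share, with 20.9% and 20.7%.

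The nuclear genes differed far less. The 85 nuclear genes summed to 43260 CPM (43184 to 43336) in NCD and to 39680 CPM (39634 to 39726) in HFD, a log2 ratio of -0.12 (-0.13 to -0.12). Of these, 77 had a mean of at least 10 CPM, 6 had UMIs but a lower mean, and 2 had no UMI. The 77 were spread to both sides, 25 with an interval above 0, 49 below 0 and 3 spanning it, with a median of -0.076. Over all genes 56.7% of intervals lay above 0 and 22.9% below, and an interval also narrows with a gene's UMIs. None (0 of 77) was at least 1.5-fold higher in HFD and 1 was at least 1.5-fold lower, beside the same 17.9% and 4.51% of all genes. Measured against the median of all genes, 14 of the 77 were above it and the other 63 below. The ratio of mitochondrially to nuclear encoded UMIs of the 98 genes went from 1.97 in NCD to 1.42 in HFD.

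**Figure D2:**
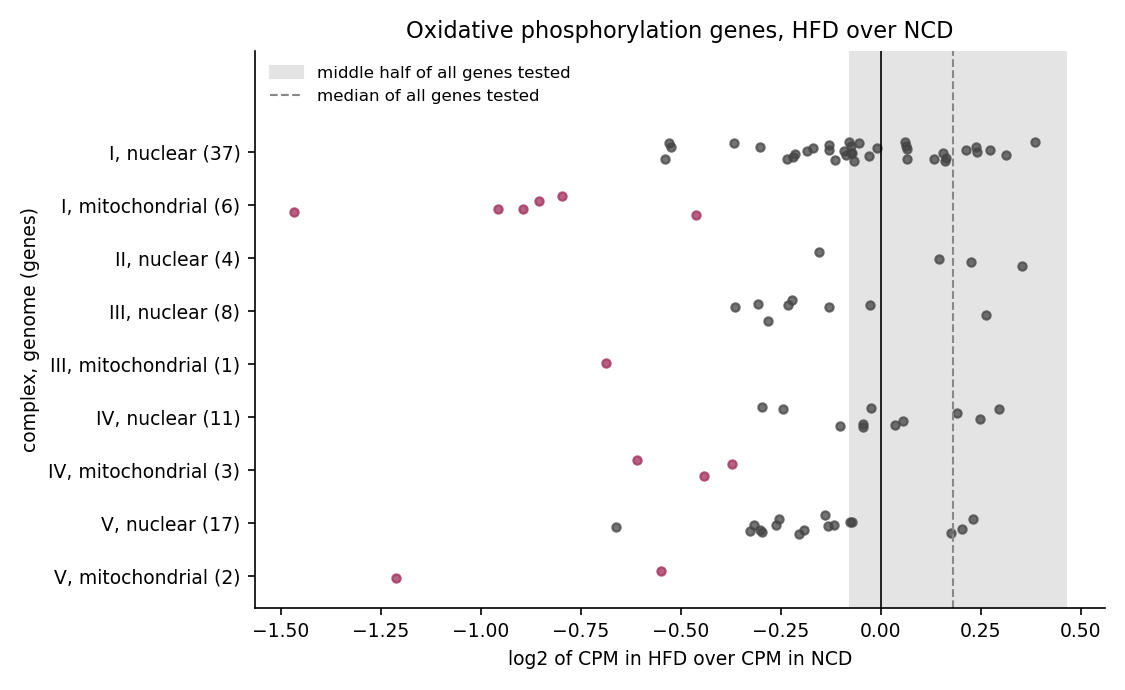
Log2 of CPM in HFD over CPM in NCD for the 89 genes past the minimum of 10 CPM, 1 point per gene, by complex and genome, with the number of genes in brackets and points spread vertically at random. The grey band holds all 6257 genes from the lower to the upper quartile (-0.076 to 0.46) and the dashed line their median of 0.18. The mitochondrial genes (coloured points) lie between -1.47 and -0.37, and the nuclear genes between -0.66 and 0.39.

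Complex I takes electrons from NADH at its nuclear encoded matrix arm. Its nuclear genes summed to 13418 CPM in NCD and 12442 CPM in HFD (-0.11), whereas its mitochondrial genes summed to 23072 and 13632 CPM (-0.76). The 7 nuclear core subunits, which carry the flavin and the iron-sulfur clusters, had a log2 ratio of -0.17 (-0.19 to -0.15) in sum. By their intervals 5 of the 7 were lower and 1 higher, beside 22.9% and 56.7% of all genes, which were not matched for abundance. The other 30 nuclear genes past the minimum summed to -0.10 (-0.11 to -0.10), with 16 lower and 13 higher. They include Ndufa4, and without Ndufa4 the nuclear sum of complex I had a log2 ratio of -0.041 (-0.047 to -0.035).

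Within the core, Ndufv1, which binds NADH, counted 210 CPM in NCD and 146 CPM in HFD (-0.53, -0.57 to -0.48). Ndufs7, which holds the last cluster before ubiquinone, counted 160 and 124 CPM (-0.37, -0.42 to -0.32). Ndufb1-ps, an accessory membrane subunit, had the lowest ratio of the complex at 883 and 608 CPM (-0.54, -0.56 to -0.52). Ndufa4 counted 2164 and 1505 CPM (-0.52). At the other end Ndufa13, an accessory subunit also known as GRIM-19, counted 454 and 593 CPM (0.39, 0.36 to 0.41). Nuclear genes of one complex thus lay on both sides of 0 by more than counting error. Ndufb1-ps lies at chr12:101968090-101977068 and Ndufa13 at chr8:69894180-69902558, both on the minus strand.

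Complex II was the complex whose sum was higher in HFD. Its 4 genes counted 837 CPM in NCD and 906 CPM in HFD (0.11, 0.09 to 0.13), which lies under the all-gene median of 0.18. Sdhd, a membrane anchor (chr9:50596357-50603812, minus strand), counted 141 and 181 CPM (0.35, 0.30 to 0.40), and Sdhb, the iron-sulfur subunit, 265 and 238 CPM (-0.16, -0.19 to -0.12). The flavoprotein Sdha counted 259 and 286 CPM and the second anchor Sdhc 172 and 201 CPM.

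Complex III had the lowest ratio of nuclear sums, at 6356 CPM in NCD and 5479 CPM in HFD (-0.21), close to that of complex V. By their intervals 7 of the 8 nuclear genes of complex III were lower and 1 higher, beside 22.9% and 56.7% of all genes. Uqcrc1 and Uqcrc2, the paired core proteins of the matrix side, differed in direction. Uqcrc1 counted 259 and 201 CPM (-0.36, -0.40 to -0.32), and Uqcrc2 159 and 190 CPM (0.26, 0.21 to 0.31). The Rieske iron-sulfur protein gene Uqcrfs1 counted 361 and 310 CPM (-0.22). The 5 small subunits were all lower and summed to -0.22.

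Grouped by symbol, complex IV had the smallest difference of nuclear sums, 9501 CPM in NCD and 9391 CPM in HFD (-0.017). With Ndufa4 counted in complex IV, where its protein is now placed, the ratio was -0.098 for complex IV (11665 and 10896 CPM) and -0.041 for complex I (11254 and 10937 CPM), and complex I had the smallest difference. The 10 subunits of the liver form of complex IV split into 4 higher and 6 lower by their intervals, beside 56.7% and 22.9% of all genes. Cox6b1, which joins the monomers of the dimer, counted 480 and 589 CPM (0.30, 0.27 to 0.32), and Cox7b 779 and 634 CPM (-0.30, -0.32 to -0.27). Cox4i1, the regulatory subunit that binds ATP, counted 1146 and 1128 CPM. The mitochondrial core of the same complex was lower by 0.50 on the log2 scale, at 39804 and 28184 CPM.

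Several subunits of complex IV have forms used in muscle, lung or testis, and these were near 0 in both sections. Cox7b2 and Cox8c had no UMI, which allows up to 0.103 CPM in NCD and 0.0416 CPM in HFD. Cox4i2, Cox6a2, Cox6b2 and Cox8b had between 8 and 74 UMIs per section. Cox4i2 counted 0.276 CPM (0.119 to 0.543) in NCD and 0.527 CPM (0.373 to 0.723) in HFD, and Cox6a2 0.310 CPM (0.142 to 0.588) and 0.666 CPM (0.491 to 0.882).

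Cox7a1, the heart and muscle form of Cox7a2, had 239 UMIs in NCD (8.23 CPM) and 816 in HFD (11.3 CPM). It made up 1.00% (0.879 to 1.14) of the UMIs of this pair in NCD and 1.41% (1.32 to 1.51) in HFD. Markers of smooth muscle, which is present in vessel walls, moved the same way, from 25.9 CPM in NCD to 68.7 CPM in HFD. Of these 4 genes, Acta2 counted 9.06 and 28.7 CPM and Myh11 4.61 and 5.71 CPM. The sums of macrophage markers (142 and 281 CPM) and endothelial markers (78.1 and 116 CPM) were also higher in HFD. Those of T cell markers (8.16 and 5.77 CPM) and red blood cell markers (6738 and 1292 CPM) were lower. Of 4 skeletal muscle markers, which summed to 1.17 CPM in NCD and 0.943 CPM in HFD, Myh4 had 0 UMIs in both sections, Ckm and Acta1 had 0 UMIs in NCD and 2 and 4 in HFD, and Mylpf had 34 and 62 UMIs. Along the lobule as defined below, Cox7a1 and the smooth muscle markers were higher at the portal than at the central end. Cox7a1 counted 4.70 and 14.97 CPM at the central and portal ends of NCD and 8.34 and 12.4 CPM at those of HFD. The smooth muscle markers counted 5.54 and 35.9 CPM at the ends of NCD and 25.1 and 104 CPM at those of HFD. In NCD these markers were highest, at 50.7 CPM, in the bin before the portal end. The part of vessel wall in the Cox7a1 value was not tested. Ndufa4l2, a relative of Ndufa4 known from hypoxia, counted 2.86 CPM (2.28 to 3.54) in NCD and 3.40 CPM (2.99 to 3.85) in HFD.

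Complex V had a nuclear sum of 13147 CPM in NCD and 11461 CPM in HFD (-0.20). By their intervals 14 of its 17 nuclear genes were lower and 3 higher, beside 22.9% and 56.7% of all genes. The 5 genes of the catalytic head and central stalk were all lower and summed to -0.18. The 5 small membrane subunits were also all lower (-0.21), and 3 of the 4 genes of the peripheral stalk were lower with 1 higher (-0.18). Atp5b, the catalytic beta subunit, counted 1045 and 964 CPM, and Atp5a1, the alpha subunit, 850 and 806 CPM. Atp5md, a small subunit of the dimer interface, counted 851 and 679 CPM (-0.33).

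The c subunit, which forms the rotating ring, stood apart. It is made from 3 genes, Atp5g1, Atp5g2 and Atp5g3, whose mature proteins are identical and whose leader peptides and promoters differ. Atp5g3 (chr2:73908447-73911326, minus strand) counted 1119 CPM (32504 UMIs) in NCD and 708 CPM (51053 UMIs) in HFD, a log2 ratio of -0.66 (-0.68 to -0.64). It was the nuclear gene with the lowest ratio and the one past 1.5-fold on pooled counts. With the spots off tissue subtracted its ratio was -0.44 and no longer past 1.5-fold, and Ndufb1-ps was lower at -0.99. As a mean of CPM per spot, Ndufv1 (-0.70) was below Atp5g3 (-0.68). Atp5g1 counted 397 and 466 CPM (0.23, 0.20 to 0.26), and Atp5g2 359 and 405 CPM (0.18). The summed c-subunit mRNA was 1875 CPM in NCD and 1579 CPM in HFD. Atp5g3 supplied 59.7% (59.3 to 60.1) of it in NCD and 44.8% (44.6 to 45.1) in HFD, while Atp5g1 went from 21.2% to 29.5% and Atp5g2 from 19.1% to 25.7%.

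Promoter windows of these genes are printed because the 3 genes differ there while coding for 1 mature protein. RefSeq windows on GRCm38.p6, from 250 bases before to 50 bases after a start site, were found by symbol for 67 of the 85 nuclear genes (72 windows). Both strands were searched for 4 motifs of 8 letters that do not overlap each other in the windows printed. The NRF1 core CGCATGCG was in 12.5% of the 72 windows and in 1.87% of all 32851 windows. The YY1 motif AAGATGGC was in 12.5% and 2.75%, the ETS motif ACTTCCGG (bound by GABPA) in 6.94% and 3.89%, and the estrogen-related receptor motif CAAGGTCA in 5.56% and 1.56%. The windows of Atp5g3 (chr2:73911277-73911576, minus strand), Atp5g1 (chr11:96075582-96075881, minus strand) and Atp5g2 (chr15:102670998-102671297, minus strand) follow, with motif letters in capitals.
Atp5g3: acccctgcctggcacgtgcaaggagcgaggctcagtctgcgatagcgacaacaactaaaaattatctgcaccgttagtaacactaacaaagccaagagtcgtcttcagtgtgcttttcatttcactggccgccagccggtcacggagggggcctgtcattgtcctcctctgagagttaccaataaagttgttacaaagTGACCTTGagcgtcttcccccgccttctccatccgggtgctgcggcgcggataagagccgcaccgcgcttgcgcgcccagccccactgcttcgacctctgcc
Atp5g1: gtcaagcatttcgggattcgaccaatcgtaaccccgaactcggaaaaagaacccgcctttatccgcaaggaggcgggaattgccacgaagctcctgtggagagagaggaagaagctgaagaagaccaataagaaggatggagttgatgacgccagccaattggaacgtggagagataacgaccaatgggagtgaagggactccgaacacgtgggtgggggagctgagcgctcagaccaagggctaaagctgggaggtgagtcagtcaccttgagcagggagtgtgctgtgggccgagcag
Atp5g2: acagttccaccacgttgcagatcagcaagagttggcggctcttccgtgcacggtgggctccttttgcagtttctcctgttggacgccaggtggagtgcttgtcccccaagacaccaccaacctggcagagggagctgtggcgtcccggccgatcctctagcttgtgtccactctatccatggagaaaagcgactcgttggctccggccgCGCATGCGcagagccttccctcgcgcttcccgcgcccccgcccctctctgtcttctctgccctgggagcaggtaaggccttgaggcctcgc

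Atp5g3 had the reverse complement of the estrogen-related receptor motif, starting 52 bases before the start site. Atp5g2 had the NRF1 core, starting 41 bases before the start site of its window, and none of the 4 motifs was in the window of Atp5g1. The gene Atp5g2 is annotated at chr15:102662864-102672352, so its window lay within the gene. The annotated 5′ end of Atp5g2 was not searched. A match is a run of letters and not a measured site. Over the genes with windows, the median log2 ratio of HFD to NCD was -0.19 for the 9 genes with the NRF1 core and -0.075 for those without it. For the estrogen-related receptor motif, found in Atp5g3, it was -0.053 for the 4 genes with the motif and -0.075 for those without it. The YY1 motif had -0.18 and -0.061, and the ETS motif -0.13 and -0.075.

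The difference in mitochondrially encoded RNA was not the same at all depths. Among spots with at least 20000 UMIs, the 13 genes summed to 85987 CPM in NCD (413 spots) and 53814 CPM in HFD (1611 spots), a log2 ratio of -0.68. The ratio was -0.50 in spots of 10000 to 20000 UMIs and -0.32 in spots of 3000 to 10000. In spots of 1000 to 3000 UMIs it was 0.11, from 745 NCD spots at 82688 CPM and 52 HFD spots at 89092 CPM. The NCD level stayed between 82688 and 85987 CPM over these 4 classes, and the HFD level ran from 89092 down to 53814 CPM. The nuclear genes had ratios of -0.20, -0.14, -0.12 and -0.14 from the shallowest to the deepest of these classes.

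**Figure D3:**
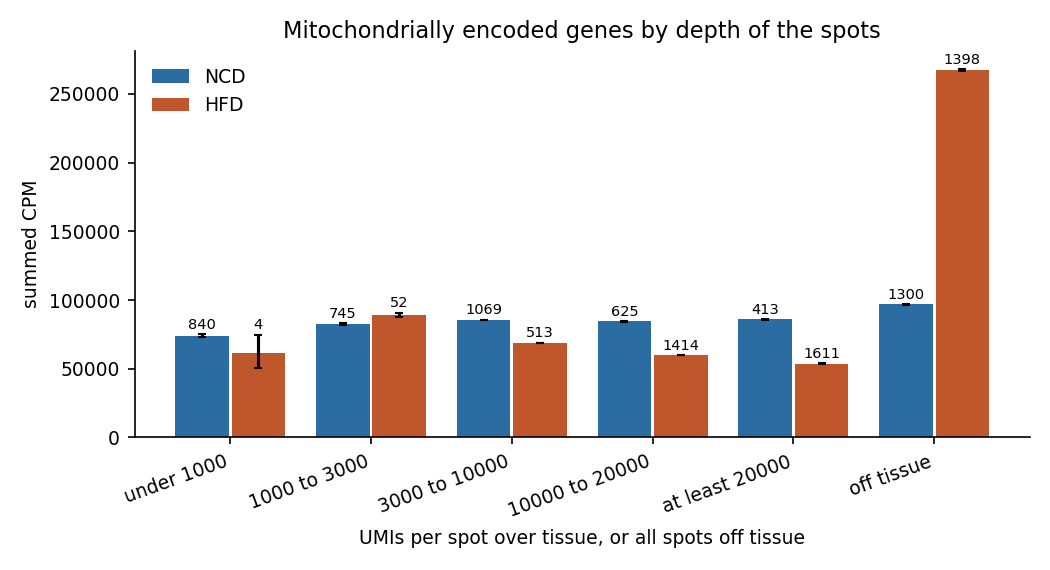
Summed CPM of the 13 mitochondrially encoded genes by UMIs per spot over tissue and in all spots off tissue, with exact 95% Poisson intervals and the number of spots above each bar. The HFD bar is above the NCD bar for spots of 1000 to 3000 UMIs (89092 and 82688 CPM) and off tissue (267378 and 96868 CPM), and below it in the other classes.

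Pooled over all depths, RNA found off tissue was richer in mitochondrial transcripts than RNA over tissue, most of all in the HFD capture area. There the 13 genes held 267378 CPM in 1398 spots off tissue, against 56426 CPM over tissue, while in the NCD capture area the 1300 spots off tissue held 96868 CPM against 85137 CPM. The off-tissue level of the 13 genes differed with depth in both capture areas. In spots off tissue of 1000 to 3000 UMIs it was 136499 CPM in NCD and 353881 CPM in HFD. In those of 10000 to 20000 UMIs it was 81721 CPM in NCD and 73800 CPM in HFD, the latter from 11 spots. Spots over tissue of that depth held 84508 CPM in NCD and 59887 CPM in HFD, so that NCD was lower off tissue there. For the nuclear genes the off-tissue levels were 41212 CPM in NCD and 32513 CPM in HFD. With the mean of the spots off tissue subtracted, the log2 ratio of HFD to NCD was -0.66 for the mitochondrial genes and -0.24 for the nuclear genes. That subtraction removed 7.76% of the HFD UMIs and 67.2% of the NCD UMIs. With spots over and off tissue pooled where they had at least 1000 UMIs, the ratios were -0.51 and -0.12.

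Over single spots with at least 1000 UMIs (2852 in NCD and 3590 in HFD), the mitochondrial share of UMIs in NCD had a 10th percentile of 6.28%, a median of 8.39% and a 90th percentile of 10.7%. In HFD these were 3.84%, 5.39% and 8.49%. The HFD median lay below the NCD 10th percentile, and the spots of the sections overlapped above it. The nuclear share was narrower, with medians of 4.28% in NCD and 3.95% in HFD. Among spots of at least 3000 UMIs, Spearman's rho between the mitochondrial share and UMIs per spot was 0.0087 in NCD (2107 spots) and -0.28 in HFD (3538 spots), as a description of spots that share 1 library each. Red blood cell markers summed to 6738 CPM in NCD and 1292 CPM in HFD, and their part in the levels was not tested.

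For the position of a spot in the lobule, UMIs of 9 periportal marker genes (among them Cyp2f2, Hal and Ass1) were divided by the UMIs of these and 8 pericentral markers (among them Glul, Cyp2e1 and Cyp1a2). None of the markers is a gene of oxidative phosphorylation. Spots with at least 1000 UMIs were ranked by this share and cut into 5 equal bins within each section, of 570 or 571 spots in NCD and 718 in HFD, from the pericentral to the periportal bin. The periportal bin was the shallowest in NCD (median 3932 UMIs, against 7928 in the pericentral bin) and the deepest in HFD (27595 against 18154). Alb was higher toward the portal side in both, from 39127 to 78595 CPM in NCD and from 43400 to 75927 CPM in HFD.

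Mitochondrially encoded RNA was higher toward the portal side in both sections. In NCD the 13 genes summed to 71231, 82112, 88619, 92413 and 96138 CPM from the pericentral to the periportal bin, a log2 ratio of the ends of 0.43 (0.43 to 0.44). In HFD the levels were 51517, 55381, 56143, 57410 and 59820 CPM, a ratio of 0.22 (0.21 to 0.22). Each bin was higher than the one before it, with the steps beyond counting error. The HFD level of the periportal bin was still below the NCD level of the pericentral bin.

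**Figure D4:**
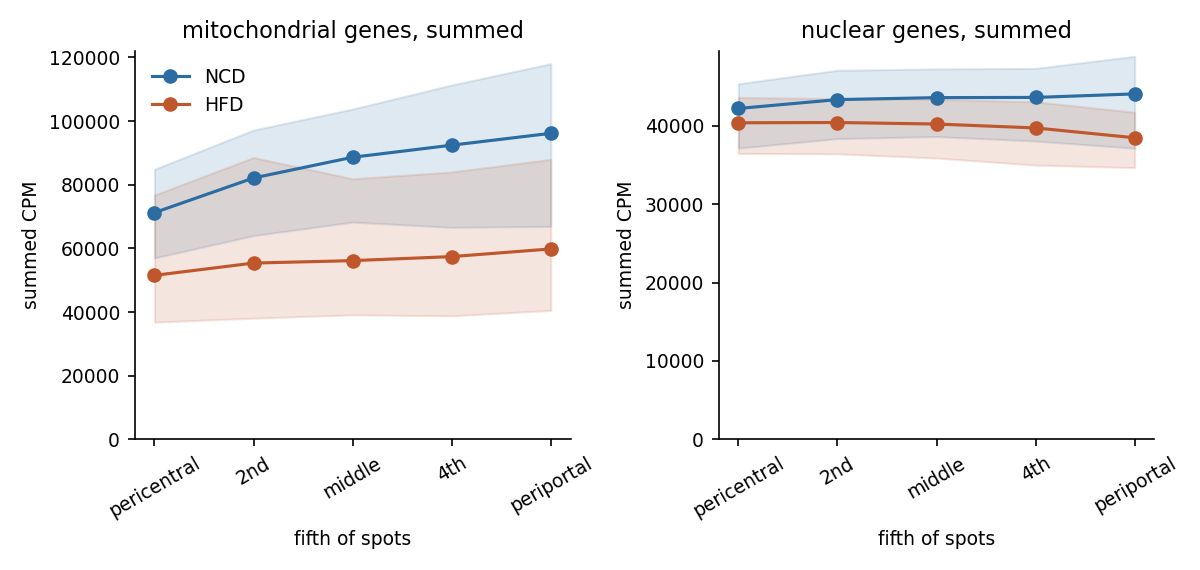
Summed CPM of the mitochondrially encoded genes (left) and the nuclear genes (right) over 5 equal bins of spots from pericentral to periportal, in NCD and HFD. Points are the pooled counts of a bin and bands run from the 10th to the 90th percentile of single spots, which overlap between the sections in every bin. The mitochondrial sum ends at 96138 CPM in NCD and 59820 CPM in HFD, and the nuclear sums at 44049 and 38455 CPM.

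Of the 12 mitochondrial genes with at least 10 CPM, 9 were higher in the periportal bin of NCD by a log2 ratio of at least 0.32 and 0 were lower by that much, beside 8.53% and 29.5% of all 6239 genes. In HFD, 2 were higher and 1 lower, beside 6.01% and 20.3% of all genes. mt-Cytb had the highest ratio of the genes with more than 1000 CPM. It counted 6902 CPM in the pericentral and 11409 CPM in the periportal bin of NCD (0.73, 0.71 to 0.74), and 4866 and 6463 CPM in HFD (0.41, 0.40 to 0.42). mt-Co1 was the other gene past this ratio in HFD, with 8574 and 10839 CPM (0.34), after 11312 and 15263 CPM in NCD (0.43). The lowest ratios in NCD among the abundant genes were those of mt-Co2 (0.29) and mt-Co3 (0.27).

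The first genes of the overlapping pairs were the mitochondrial genes lower in the periportal bin of HFD beyond counting error. The HFD intervals of mt-Nd5 (0.04, -0.01 to 0.10) and mt-Nd6 (-0.44, -1.05 to 0.18) spanned 0. mt-Atp8 counted 83.0 CPM in the pericentral and 96.0 CPM in the periportal bin of NCD (0.21, 0.01 to 0.41), but 47.9 and 30.03 CPM in HFD (-0.67, -0.83 to -0.51). mt-Nd4l counted 176 and 292 CPM in NCD (0.73, 0.61 to 0.85), and 89.7 and 76.3 CPM in HFD (-0.23, -0.34 to -0.13). Their partners were higher on the portal side of both sections, mt-Atp6 by 0.45 in NCD and 0.12 in HFD and mt-Nd4 by 0.57 and 0.23. As a share of its partner, mt-Nd4l was at 3.42% and 3.83% at the ends of NCD and at 2.09% and 1.51% at the ends of HFD, and mt-Atp8 at 0.780% and 0.662% in NCD and 0.574% and 0.331% in HFD. The capital letters printed above are the bases that belong to both genes of a pair.

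The nuclear genes were nearly level along the lobule, with opposite slopes in the sections. They summed to 42192, 43321, 43574, 43599 and 44049 CPM in NCD (0.062, 0.053 to 0.071) and to 40367, 40402, 40207, 39709 and 38455 CPM in HFD (-0.070, -0.075 to -0.065). The median of all genes was -0.15 in NCD and -0.12 in HFD, so that the median nuclear gene lay above it by 0.22 in NCD and by 0.039 in HFD. Of the 77 genes, 68 lay above the all-gene median in NCD and 52 in HFD.

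In NCD, 7 of the 77 nuclear genes were higher in the periportal bin by a log2 ratio of at least 0.32 and 1 (Ndufa10) was lower, beside the same 8.53% and 29.5% of all genes. In HFD 0 were past this ratio in either direction, beside 6.01% and 20.3%. By intervals, 21 nuclear genes were higher in the periportal bin of NCD and lower in that of HFD, 5 were higher in both, 11 lower in both, and 0 lower in NCD and higher in HFD. Over all 6238 genes with a ratio in both sections, these patterns held for 1.52%, 4.75%, 18.3% and 1.67%. With the 2 mitochondrial genes described above, 23 of the 89 genes had intervals on opposite sides of 0, against 3.19% of all genes. An interval narrows with a gene's UMIs, and these shares of all genes were not matched for abundance. Among the 77 nuclear genes, 30 intervals spanned 0 in NCD and 23 in HFD.

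**Figure D5:**
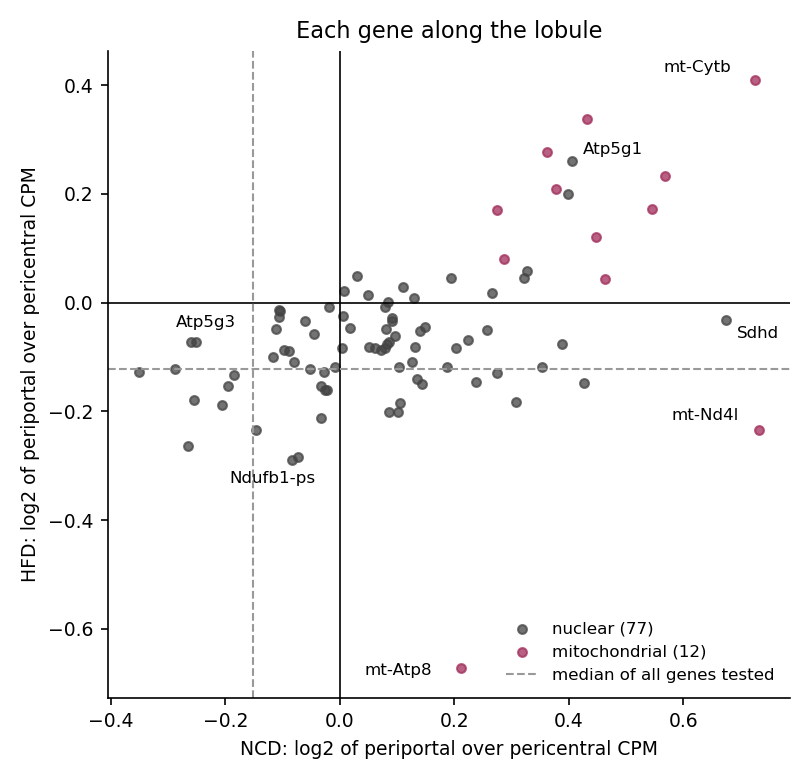
Log2 of periportal over pericentral CPM in NCD (horizontal) and HFD (vertical) for 77 nuclear and 12 mitochondrial genes, with dashed lines at the medians of all genes (-0.15 and -0.12). Most mitochondrial genes lie at the upper right, mt-Atp8 and mt-Nd4l are the mitochondrial genes below 0 in HFD, at -0.67 and -0.23, and Sdhd lies far right at 0.68 in NCD and -0.03 in HFD.

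Sdhd had the highest NCD ratio of the nuclear genes. It counted 113 CPM in the pericentral and 180 CPM in the periportal bin (0.68, 0.52 to 0.83), but 179 and 175 CPM in HFD (-0.03, -0.11 to 0.04). Its HFD level was thus near the NCD periportal level at both ends. Ndufa5 and Ndufb4, accessory subunits of complex I, were also higher on the portal side of NCD and lower in HFD. Ndufa5 counted 211 and 283 CPM in NCD (0.43) and 250.9 and 226 CPM in HFD (-0.15), and Ndufb4 256 and 335 CPM (0.39) and 368 and 350 CPM (-0.08).

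Atp5g1 and Ndufa1 kept a portal bias in both sections. Atp5g1 counted 350 and 463 CPM in NCD (0.41, 0.31 to 0.50) and 413 and 496 CPM in HFD (0.26, 0.21 to 0.31). Ndufa1, an accessory subunit needed for assembly of the membrane arm, counted 337 and 443.6 CPM in NCD (0.40) and 359 and 412 CPM in HFD (0.20). Uqcrh, the hinge protein of complex III, had 0.33 in NCD and 0.06 in HFD, and Cox7b 0.19 and 0.05. Uqcrfs1 was near level, with 0.03 and 0.05.

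The 5 lowest NCD ratios belonged to complex I, 3 of them to its matrix arm (Ndufv1, Ndufs1 and Ndufs4). Ndufa10, an accessory subunit, counted 180 CPM in the pericentral and 141 CPM in the periportal bin of NCD (-0.35, -0.50 to -0.20) and 196 and 179 CPM in HFD (-0.13). Ndufv1 had ratios of -0.29 in NCD and -0.12 in HFD, and Ndufa8, an accessory subunit of the membrane arm, -0.27 and -0.26. Ndufs4, a subunit whose loss is a cause of Leigh syndrome, had -0.25 and -0.18, and the 75-kDa iron-sulfur subunit gene Ndufs1 -0.26 and -0.07 (-0.18 to 0.04). In HFD, Ndufb1-ps (-0.29), Ndufs5 (-0.28), Ndufa9 (-0.23) and Ndufa7 (-0.21) were among the 5 lowest, beside Ndufa8.

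Atp5g3 ran against Atp5g1 in both sections. It counted 1178 CPM in the pericentral and 990 CPM in the periportal bin of NCD (-0.25, -0.31 to -0.19) and 711 and 677 CPM in HFD (-0.07, -0.11 to -0.03). Its share of c-subunit UMIs was 62.2% and 54.5% at these ends of NCD and 46.6% and 43.1% in HFD. The pericentral end of HFD was therefore below the periportal end of NCD in this share. Atp5g2 was level, with shares of 19.4% and 19.9% in NCD and 26.3% and 25.3% in HFD.

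By complex, the mitochondrial core of complex III had the steepest profile in NCD (0.73) and HFD (0.41), followed in NCD by that of complex I (0.49), complex V (0.45) and complex IV (0.33). In HFD the ratios were 0.21 for complex I, 0.21 for complex IV and 0.12 for complex V. The nuclear sums had ratios between 0.042 (complex V) and 0.10 (complex III) in NCD, and between -0.13 (complex II) and -0.023 (complex V) in HFD. In NCD both parts of complexes I, III, IV and V were higher in the periportal bin, the mitochondrial part by more. In HFD the mitochondrial parts were higher there and the nuclear parts lower.

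The difference between the sections was compared within each bin. As bins were cut within each section, the same bin did not cover the same periportal share. The pericentral bin ran from 0 to 14.4% in NCD and from 1.40 to 19.9% in HFD. The periportal bin began at 65.6% in NCD and 64.3% in HFD. The share also depends on marker levels, and the pericentral markers summed to 11252 CPM in NCD and 6499 CPM in HFD. For the mitochondrial genes the log2 ratio of HFD to NCD was -0.47 in the pericentral bin, then -0.57, -0.66 and -0.69, and -0.68 in the periportal bin. For the nuclear genes it went from -0.064 through -0.10, -0.12 and -0.13 to -0.20. Complex II was higher in HFD in the pericentral bin (0.18, 0.13 to 0.23) and not beyond counting error in the periportal bin (-0.036, -0.089 to 0.017). The nuclear genes of complex IV went from 0.052 to -0.083.

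Genes that work with the chain were counted from lists outside the naming rule. Electron carriers were listed together with genes of ubiquinone synthesis and binding (13 of 14 genes with at least 10 CPM). The list had a median of 0.081, with 3 genes at least 1.5-fold higher and 0 lower, beside 17.9% and 4.51% of all genes. The 3 were the ubiquinone genes Coq2 (0.66), Coq10a (0.72) and Coq10b. Among the carrier proteins, Etfa (-0.34), Etfb (-0.52) and Etfdh (-0.24) were lower in HFD. Coq10b, which binds ubiquinone, counted 19.4 CPM in NCD and 38.7 CPM in HFD (1.00), and Coq8a, a factor of ubiquinone synthesis, 181 and 123 CPM (-0.56). Cycs, the gene of cytochrome c, was level between the sections (284 and 278 CPM), but at 216 and 385 CPM at the pericentral and periportal ends of NCD (0.83, 0.73 to 0.94) and at 270 and 260 CPM in HFD (-0.052, -0.11 to 0.0094). The assembly factors (38 of 46) had a median of 0.10 with 2 higher and 0 lower, from Ndufaf6 (-0.31) to Cox19 (0.84, 56.0 and 100 CPM). For the 2 subunits that the naming rule leaves out, Ndufab1 had 0.17 and Cyc1 -0.058.

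Factors that keep and copy mitochondrial DNA and RNA (9 of 15 genes) had a median of 0.018, with 0 past 1.5-fold in either direction. For this and the following lists, 17.9% of all genes were at least 1.5-fold higher and 4.51% lower, with a median of 0.18. Lrpprc, which stabilises mitochondrial mRNAs, counted 65.5 and 53.9 CPM (-0.28, -0.36 to -0.20), and the helicase gene Twnk 11.4 and 15.2 CPM (0.42). Tfam, which packs and transcribes mitochondrial DNA, counted 35.5 and 36.0 CPM (0.018, -0.086 to 0.12). Among the regulators (3 of 6 genes), 0 were past 1.5-fold, with Yy1 at 0.13 and Esrra at -0.017. The carriers of nucleotides, phosphate and protons were listed together with Atpif1, the inhibitor of complex V (5 of 5). This list ran from Slc25a4 (0.028) to Ucp2 (0.94, 23.5 and 45.1 CPM). It had 2 genes past 1.5-fold, both higher, which were Ucp2 and Atpif1 (0.71). The citric acid cycle (12 of 12) had a median of 0.10 with 1 gene higher, from Fh1 (-0.42, 247 and 185 CPM) to Suclg2 (0.61, 158 and 241 CPM).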

How the data were processed

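The deposited tables hold UMI counts of genes by spots, not normalized, which the authors made with Space Ranger (1.3.1 in the headers of the tables over tissue) on mm10 per the submitters' processing notes, for spots over tissue and for all spots. These tables agreed in all shared spots (0 UMIs differed). Counts were summed over spots and given per 1000000 UMIs (CPM). Sums have exact Poisson intervals, shares Clopper-Pearson intervals, and ratios exact conditional binomial intervals at the 95% level. Limits for a count of 0 used 3 counts.

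With 1 section per diet no test was run. A mean of 10 CPM or more over the sections was needed to enter counts of folds, at 1.5-fold between diets and a log2 ratio of 0.32 along the lobule. The genes named are all mitochondrial members, the highest and lowest ratio of each complex and list, members past 1.5-fold, the 5 highest and 5 lowest along the lobule in each section, isoforms of other tissues and the c subunit. Genes named outside this rule, the grouping of subunits by role and the motifs were chosen after values had been seen. The members and lists were chosen with earlier results of these data known.

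UMIs were counted from 3′ ends, so levels are not per length. Reads from stretches common to near-identical copies or overlapping genes cannot be assigned to a single gene by sequence. Positions are from GENCODE M21 and sequences from RefSeq, both on GRCm38. Alternatives changed the denominator, the weighting, depth and choice of spots, the markers, the bins and the fold, and moved Ndufa4 to complex IV (after values had been seen). Spots drawn down to 1000 UMIs used seed 1. The ratios and intervals between sections were tested on simulated Poisson counts, which held no variation between spots or animals. The lobule bins were not simulated. The tools were pandas 2.3.3, matplotlib 3.10.9, scipy 1.17.1 and numpy 2.4.6 under Python 3.11.15. Images and spot positions were not used here.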

Additional observations from a re-analysis of the deposited data

Results flagged for a closer look

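The nuclear genes of oxidative phosphorylation, summed, had a log2 ratio of periportal to pericentral CPM of 0.062 in NCD and -0.070 in HFD, and the intervals lay on opposite sides of 0. The same held for 23 single genes, of which 21 are nuclear, out of 89, beside 3.19% of all 6238 genes compared in both sections. That share was not matched for abundance, and an interval narrows with a gene's UMIs. Among the mitochondrial genes, mt-Atp8 had 0.21 in NCD and -0.67 in HFD, and mt-Nd4l 0.73 and -0.23. These pairs of values are singled out because the sections ran in opposite directions under the same contrast, and the difference between the sections was not tested.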

How the results depend on the processing

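None of the alternatives run on the group sums and counts below reversed a direction, although within spots of 1000 to 3000 UMIs the mitochondrial ratio was 0.11, and single genes were not all rerun. No paired analysis was possible because each diet has 1 section. The log2 ratio of HFD to NCD of the mitochondrially encoded genes (-0.59) and of the nuclear genes (-0.12) was -0.64 and -0.17 per non-mitochondrial UMI, -0.55 and -0.081 without the 20 most abundant other genes in the total, -0.45 and -0.091 as a mean of CPM per spot, -0.50 and -0.12 with spots drawn down to 1000 UMIs, -0.66 and -0.24 with the spots off tissue subtracted, and -0.51 and -0.12 over the spots on and off tissue pooled from 1000 UMIs up, an alternative chosen after seeing the data. The mitochondrial value was also -0.60 with at least 1000 or 3000 UMIs per spot, and -0.60 without the 1% of spots with the highest mitochondrial share, again chosen after seeing the data. The median of all genes was 0.18 in the main setting and between 0.09 and 0.23 in these.

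The count of nuclear genes at least 1.5-fold lower went from 1 to 3 as a mean of CPM per spot (Atp5g3, Ndufa4 and Ndufv1), 2 with spots drawn down (Atp5g3 and Ndufv1), 3 with the spots off tissue subtracted (Ndufc1, Ndufa4 and Ndufb1-ps, with Atp5g3 at -0.44), and 7 at a log2 ratio of 0.32, beside 11.0% of all genes. The count at least 1.5-fold higher went from 0 to 2 without the minimum of 10 CPM (Cox4i2 and Cox6a2) and to 2 at that ratio (Ndufa13 and Sdhd), beside 36.0% of all genes.

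The periportal over pericentral ratio of the mitochondrial genes in NCD (0.43) and HFD (0.22) was 0.47 and 0.23 per non-mitochondrial UMI, 0.45 and 0.19 without Cyp2e1 and Cyp2f2 as markers, 0.33 and 0.15 with 3 bins in place of 5, 0.35 and 0.14 drawn down, 0.42 and 0.17 as a mean of CPM per spot, 0.39 and 0.24 with limits set over both sections, and 0.44 in NCD with at least 3000 UMIs per spot. For the nuclear genes (0.062 and -0.070) it was 0.10 and -0.057 per non-mitochondrial UMI, 0.044 and -0.053 with 3 bins, and in HFD -0.057 without these markers and -0.062 drawn down. The causes of these shifts were not tested. Depth limits mt-Nd6 and the isoforms of other tissues.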
